A study of Homo sapiens with 18 samples.

Results

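The comparison described here asked what CB-103 does to messenger RNA in control cells. It used 6 of the 18 libraries of the study, 3 of the group NT CB-103 and 3 of NT DMSO, chosen by their treatment and guide labels. All cells were RPMI-8402, a long-established cell line from human T-cell leukaemia of the acute lymphoblastic type (T-ALL). NT cells carried a non-targeting control guide and are labelled WT in genotype. Both NT groups were treated for 24 h, one with CB-103, a small molecule that blocks assembly of the NOTCH transcription complex, and one with the vehicle DMSO. The dose is not given in the sources used here, and nothing in the labels says whether the control cells were a clone or a pool, or whether replicates were separate cultures. The p-values thus rest on library-to-library spread alone, which may be technical in part. The other groups used below were NT cells given the gamma-secretase inhibitor LY3039278 (GSI), and PIK3R1 knockout (KO) cells given DMSO or CB-103, each treated for 24 h with 3 libraries a group. Of 58735 genes in the table, 17346 passed the filter on low counts and were tested.

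NOTCH receptors are cut by gamma-secretase after binding their ligand, and the freed intracellular part enters the nucleus, joins the DNA-binding factor RBPJ and a MAML coactivator, and switches on genes such as HES1, DTX1 and MYC. T-ALL cells often depend on this signal for growth. The unfolded protein response is the answer of the endoplasmic reticulum (ER) to misfolded protein. It runs through the sensors ERN1 (IRE1), EIF2AK3 (PERK) and ATF6, which raise chaperones, protein disposal and, through ATF4 and DDIT3, amino acid genes. IRE1 acts by cutting a short segment out of XBP1 messenger RNA, so that the joined RNA encodes an active transcription factor.

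The sequences below belong to the NOTCH and ER stress genes on which the results turn. The first pair is the XBP1 messenger RNA around the segment that IRE1 removes, in capitals, at chr22:28796124-28796149 on the minus strand (hg38, GENCODE release 29), followed by the same bases joined, as transcript XBP1-207 holds them. The segment lies in an exon, in the coding part, and its 26 bases shift the reading frame.

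XBP1 with the segment: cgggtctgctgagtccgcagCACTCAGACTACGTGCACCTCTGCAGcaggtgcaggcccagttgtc
XBP1 joined: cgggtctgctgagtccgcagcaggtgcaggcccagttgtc

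The next 4 sequences are promoters, the 150 bases before the transcription start (RefSeq, GRCh38.p14), printed on the strand of the gene. Capitals mark a match of the RBPJ site GTGGGAA in HES1 (chr3:194135998-194136147, plus strand) and HES4 (chr1:1000098-1000247, minus strand). In HSPA5 (chr9:125241344-125241493, minus strand) and XBP1 (chr22:28800570-28800719, minus strand) they mark the ER stress element, which is CCAAT, 9 further bases and CCACG. XBP1 was added to this set after its values were seen. DDIT3 and INSIG1 were also planned for it but are not shown, since their 150 bases hold no match of the AP-1 site and of the sterol element core searched there.

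HES1 promoter: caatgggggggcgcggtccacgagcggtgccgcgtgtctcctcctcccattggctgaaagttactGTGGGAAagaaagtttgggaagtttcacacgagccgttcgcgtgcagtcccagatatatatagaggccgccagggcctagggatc
HES4 promoter: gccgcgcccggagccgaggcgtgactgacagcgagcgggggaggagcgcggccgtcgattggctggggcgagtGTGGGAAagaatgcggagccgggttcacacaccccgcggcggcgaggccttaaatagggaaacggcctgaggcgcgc
HSPA5 promoter: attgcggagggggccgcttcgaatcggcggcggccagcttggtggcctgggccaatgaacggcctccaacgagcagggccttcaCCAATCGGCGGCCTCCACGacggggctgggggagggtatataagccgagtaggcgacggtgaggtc
XBP1 promoter: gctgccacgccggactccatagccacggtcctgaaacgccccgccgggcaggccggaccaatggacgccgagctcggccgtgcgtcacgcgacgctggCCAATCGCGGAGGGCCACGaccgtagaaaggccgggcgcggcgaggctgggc

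The 6 libraries held between 30416183 and 43558387 estimated reads. Correlations of log2 CPM, the count scaled to library size, were 0.995 to 0.998 within a treatment and 0.967 to 0.972 between treatments. Pairs of replicates differed by 6.29 to 14.3 times counting noise (chi-square per degree of freedom over 15410 to 16113 genes), so no library was a copy of another. Mitochondrially encoded genes took 3.09% to 3.72% of reads under DMSO and 4.73% to 5.47% under CB-103. Refitting without those genes kept 10056 of the calls made with them. CPM values are shares of a library, so a change in total RNA per cell cannot be told apart from one in the opposite direction across all other genes, and fewer cells of a type cannot be told apart from less RNA per cell.

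CB-103 changed the level of more than every second gene tested. Fold changes are on the log2 scale from edgeR, and a gene was called at a Benjamini-Hochberg adjusted p under 0.05. The standard error (SE) is not an edgeR output. It was derived as the absolute log2 fold change divided by the square root of the F statistic of edgeR's test. Of the 17346 genes, 10095 were called (58.2%), 5120 higher (29.5%) and 4975 lower (28.7%), and these shares are the background for every list below. A change of at least 2-fold was called for 1733 genes upward (9.99%) and 1368 downward (7.89%). The median log2 fold change of all tested genes was 0.04. Replicates of the treatments did not overlap for 11084 genes (63.9%).

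The change moved a large part of the RNA. Genes called higher took 21.0% to 21.3% of reads in the DMSO libraries and 37.2% to 38.3% in the CB-103 libraries, and genes called lower went from 53.9% to 54.5% down to 35.1% to 36.2%. Calls rested on level: 25.9% of genes with a mean under 1 CPM were called, against 79.5% of those over 100 CPM. By gain of CPM the leading nuclear genes included HSPA5, HSP90B1, SCD, CALR, HYOU1 and FTH1, and the mitochondrial ribosomal RNA MT-RNR2 gained most, from 2932±437 to 7870.0±727 CPM. By loss of CPM the leading genes encode actin, tubulins and abundant growth proteins: ACTB, TUBB, TUBA1B, EEF1A1, HNRNPA1, PTMA, TMSB4X and LDHA. ACTB stood at 5035, 4491 and 4283 CPM with DMSO and at 1533, 1274 and 1167 CPM with CB-103 (-1.80, SE 0.09, adjusted p = 1.2e-11). TUBB fell from 4046±186 to 1113±132 CPM and TUBA1B from 3970.0±184 to 1270.0±117. These gene families, like FTH1 and EEF1A1, have near-identical copies and pseudogenes, so the split of reads among copies is uncertain.

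**Figure D1:**
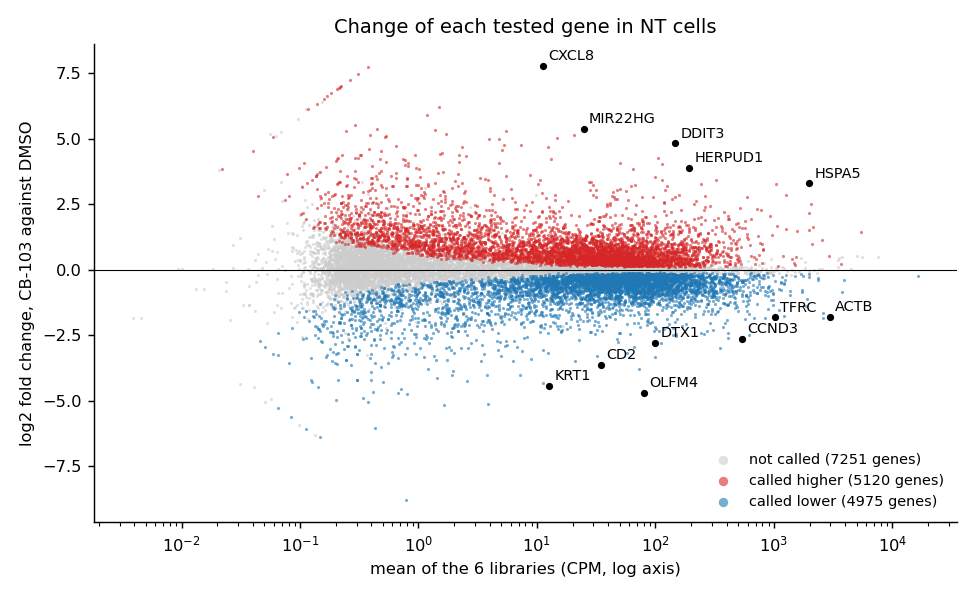
Each point is one of 17346 tested genes, with the mean of the 6 NT libraries in CPM on a log axis and the log2 fold change of CB-103 against DMSO on the vertical axis. Red points are the 5120 genes called higher and blue points the 4975 called lower. Black points are labelled examples, with HSPA5 at 3.29 and OLFM4 at -4.70.

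At a mean level of 5 CPM or more, the steepest rise was that of CXCL8, a neutrophil chemokine that stood at 0.109, 0.0309 and 0.141 CPM with DMSO and at 22.1, 18.4 and 26.7 CPM with CB-103 (7.78, SE 0.34). Every CB-103 library lay far above every DMSO library, in which the gene was close to absent. The other steep rises included the long noncoding host gene MIR22HG (5.37), MEI1 (5.15), the interleukin 21 receptor gene IL21R (4.76), the autophagy gene WIPI1 (4.58), the endogenous retroviral envelope gene ERVFRD-1 (4.69), ABHD4 (4.24) and the pseudogene NMRAL2P (5.29). The steepest fall was that of OLFM4, a secreted glycoprotein gene, at 158, 153 and 148 CPM with DMSO and at 6.86, 5.48 and 5.22 CPM with CB-103 (-4.70, SE 0.11, adjusted p = 8.7e-16). KRT1 (-4.43), ACY3 (-4.33), the homeobox gene MEOX1 (-4.03), NTRK3 (-3.41), ANKRD1 (-3.50), FAM30A (-3.33) and the potassium channel gene KCNH2 (-3.31) fell steeply as well. Replicates did not overlap for any of these genes, which the rule for naming them required.

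NOTCH target genes fell. Of 18 listed, 14 were measured, 12 were called lower and 1 higher, against 28.7% and 29.5% of all genes, with a median of -1.47. The list was chosen with earlier results of these data known and is no independent evidence of its direction. HES1, a repressor that NOTCH switches on, stood at 80.6, 88.3 and 84.2 CPM with DMSO and at 17.1, 13.8 and 16.1 CPM with CB-103, without overlap. RHOU, a GTPase gene, fell from 711±6.4 to 115±6.1 CPM (-2.62), and the complement receptor gene CR2 from 136±0.75 to 9.73±0.81 CPM (-3.81). Smaller falls were called for CD3D (-0.69), TRIB2 (-0.68), SHQ1 (-0.53) and HEYL (-0.29). LZTFL1 was the member called higher (0.74). IL7R, the interleukin 7 receptor gene, was at most 0.828 CPM in any of the 6 libraries and was not called (-0.45, SE 1.0, adjusted p = 0.73). The remaining 4 genes, HES5, HEY1, NRARP and PTCRA, were too low to be tested.

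The NOTCH machinery itself changed unevenly. Of 33 listed genes 29 were measured, with 9 called higher and 12 lower and a median of 0.07. NOTCH1, the main receptor of T-ALL, stood at 439, 517 and 499 CPM with DMSO and at 151, 157 and 146 CPM with CB-103 (-1.68, SE 0.06). NOTCH3 stood at 45.5, 49.9 and 52.2 CPM with DMSO and at 10.0, 16.1 and 8.30 CPM with CB-103 (-2.11, SE 0.17). The DNA-binding factor RBPJ fell by 0.72 on the log2 scale. The coactivator genes MAML1, MAML2 and MAML3 were all called lower (-0.35, -1.61 and -0.22), MAML2 from under 0.5 CPM. The receptor-modifying glycosyltransferase genes split, with LFNG (-3.14) and MFNG (-0.78) lower and RFNG (0.66) higher. LFNG was low, at 1.08±0.21 CPM with DMSO and 0.116±0.052 CPM with CB-103. The receptor-cutting protease gene ADAM17 rose from 40.0±1.3 to 84.7±2.9 CPM (1.08) while that of its relative ADAM10 fell (-0.49). Among gamma-secretase subunits, NCSTN (0.23) and APH1A (0.23) were called higher by small amounts.

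Genes of the unfolded protein response were mostly higher. Of 20 sensors and transcription factors, all measured, 15 were called higher, 2 lower and 3 were not called, with a median of 1.38, and 12 rose at least 2-fold (background 9.99%). The IRE1 gene ERN1 stood at 24.0, 23.1 and 23.6 CPM with DMSO and at 96.3, 89.9 and 94.1 CPM with CB-103 (1.99, SE 0.06). The PERK gene EIF2AK3 rose by 1.76 and ATF6 by 0.66. The 2 members called lower, EIF2AK2 (-0.25) and EIF2AK4 (-0.21), encode kinases that sense double-stranded RNA and amino acid shortage, and the haem-regulated kinase gene EIF2AK1 was not called (0.06).

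The transcription factors downstream of the sensors rose as well. DDIT3, also called CHOP, stood at 9.19, 10.3 and 10.4 CPM with DMSO and at 275, 274 and 306 CPM with CB-103 (4.83, SE 0.08, adjusted p = 3.7e-17). The 3 CB-103 libraries lay close to each other and far above all DMSO libraries. PPP1R15A, the phosphatase subunit that ends the translation block set by PERK, rose from 15.9±0.33 to 184±13 CPM (3.54). ATF5 rose from 56.0±3.4 to 594±22 CPM (3.41) and the pseudokinase gene TRIB3 from 45.4±4.2 to 439.9±26 CPM (3.27). ATF4 itself, which is controlled mainly at the level of translation, rose by 0.50, and ATF3 rose by 1.5.

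The makeup of XBP1 RNA was nearly reversed. The share of the joined form among coding XBP1 transcripts was taken by TPM, a length-normalised transcript level. It was 15.0%, 13.2% and 13.2% in the DMSO libraries and 92.5%, 91.7% and 93.4% in the CB-103 libraries. The groups did not overlap, and the means were 13.8%±1.1 and 92.5%±0.81 (SD, n = 3; exact permutation test, two-sided, p = 0.10, the smallest that 3 against 3 libraries allow). The joined form rose from 11.2±1.1 to 236.9±0.90 TPM and all other coding transcripts together fell from 70.0±4.1 to 19.1±2.3 TPM. XBP1-201, which holds the segment, went from 80.6%±2.0 to 4.28%±2.0 of the gene's TPM. Whether each of the other coding transcripts holds it was not checked. With all XBP1 transcripts in the denominator the shares were 13.3% and 88.2%. In NT GSI libraries the share was 7.22%±2.8, and in KO cells it went from 16.2%±4.9 under DMSO to 78.1%±0.48 under CB-103. Total XBP1 RNA rose too (1.62, SE 0.05). These shares come from Salmon's assignment of reads to transcripts that differ by the short segment printed above, not from reads counted over the junction.

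**Figure D2:**
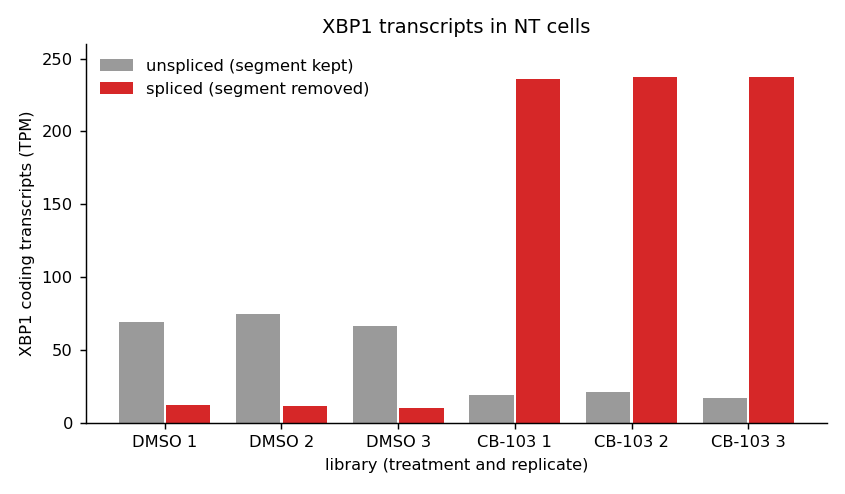
Level of coding XBP1 transcripts in TPM for each of the 6 NT libraries. Red bars are the joined form and grey bars all other coding transcripts, labelled unspliced in the figure. Grey bars exceed red bars in the 3 DMSO libraries, and the joined form is at 236 to 238 TPM in the 3 CB-103 libraries.

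ER chaperones and folding enzymes rose almost as a whole. Of 24 members, all measured, 23 were called higher and none lower, with a median of 2.24, and 21 rose at least 2-fold. HSPA5 (BiP), the main chaperone of the ER lumen, stood at 379, 378 and 339 CPM with DMSO and at 3660.0, 3276 and 3771 CPM with CB-103 (3.29, SE 0.08, adjusted p = 1.9e-15). That is a rise from 365±23 to 3569±260 CPM, with no overlap. Its partner genes rose as well: DNAJB9 from 13.3±0.25 to 215±16 CPM (4.01), CRELD2 from 8.32±0.046 to 121±3.5 (3.86), SDF2L1 from 5.71±0.46 to 54.0±3.0 (3.25) and DNAJC3 by 3.18. The disulphide isomerase gene PDIA4 rose from 197±10 to 1883±114 CPM (3.26). The smallest called rises were those of TXNDC11 (0.79) and SIL1 (0.90). The single member not called was the oxidase gene ERO1A (-0.15), although 1 member of the list was called lower with the replicate number as a block, while its paralog ERO1B rose by 2.79. Summed over the list, the level went from 4460 to 4670 CPM under DMSO to 20900 to 22400 CPM under CB-103.

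Genes for removal of misfolded protein rose next. Of 20 genes of ER-associated degradation 19 were measured, with 18 called higher and 1 lower and a median of 1.10. HERPUD1, which anchors the disposal complex, stood at 23.9, 25.7 and 23.7 CPM with DMSO and at 348, 343 and 398 CPM with CB-103 (3.90, SE 0.08). The ubiquitin ligase gene SYVN1 rose from 37.0±2.2 to 254±7.3 CPM (2.78), its partner SEL1L from 87.9±2.1 to 424±7.8 (2.27) and SELENOS from 19.6±1.8 to 134±12 (2.77). VCP, the ATPase that pulls proteins out of the membrane, rose by 1.28. The member called lower was the conjugating enzyme gene UBE2G2 (-0.26), a call lost without either NT CB-103 replicate 1 or 2.

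Genes that move proteins into and out of the ER were called higher throughout: 31 of 31 measured members of 32, with a median of 1.06 and changes from 0.27 (SPCS1) to 3.03 (SEC11C). SEC61A1, the channel subunit, stood at 236, 244 and 236 CPM with DMSO and at 1206, 1189 and 1192 CPM with CB-103 (2.33, SE 0.05), and its replicates were tight. Members rose in the translocon-associated complex (SSR3 2.04), the signal recognition particle receptor (SRPRB 1.73) and the COPII coat that carries cargo to the Golgi (SEC24D 1.99, SEC23B 1.71).

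**Figure D3:**
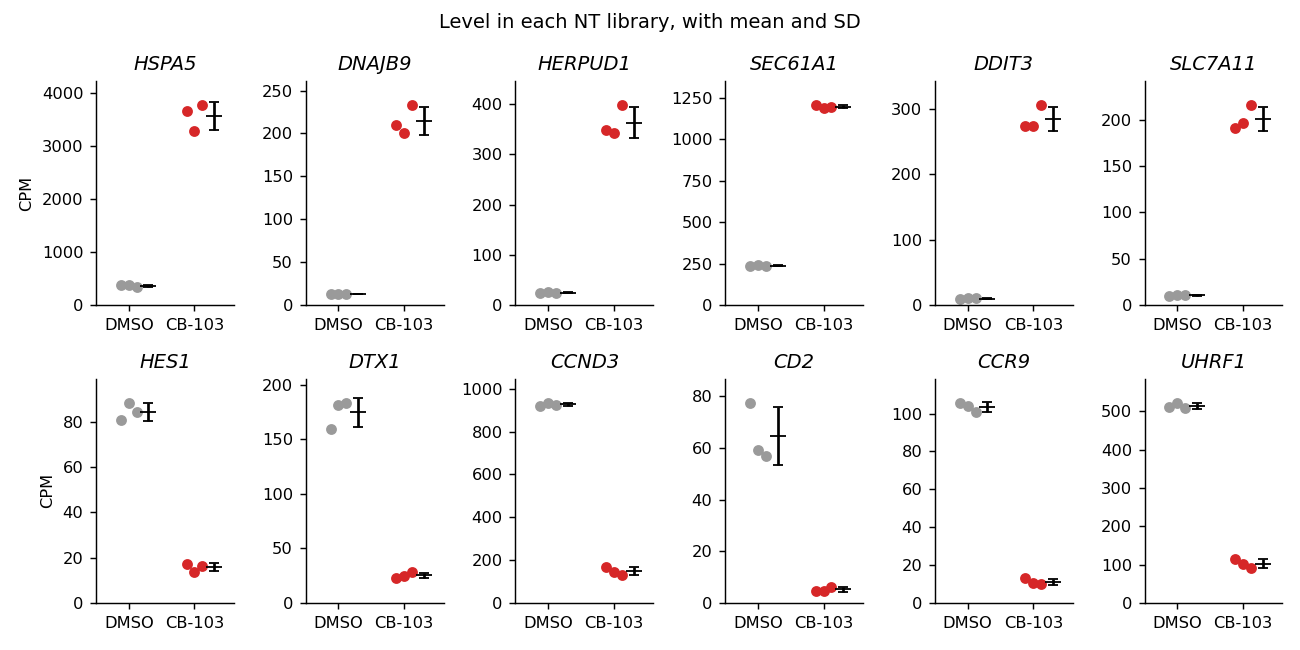
CPM of 12 genes in each NT library, with 3 grey points for DMSO, 3 red points for CB-103 and the mean and SD of each group in black. The 6 genes in the upper row are higher in every CB-103 library and the 6 in the lower row are lower in each of them.

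Proteasome subunits rose by smaller amounts. Of 34 genes 29 were called higher and 2 lower, with a median of 0.70, and 9 rose at least 2-fold. PSMC4, a base ATPase, stood at 87.7, 81.6 and 80.0 CPM with DMSO and at 232, 226 and 239 CPM with CB-103 (1.48, SE 0.07). PSMD11 (1.4) and PSMC2 (1.27) rose as well, beside NFE2L1 (1.29), a transcription factor of proteasome genes. The members called lower, PSMA4 (-0.24) and PSMA2 (-0.21), belong to the core ring.

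Autophagy genes rose in part. Of 31 measured lysosome and autophagy genes 17 were called higher and 5 lower, with a median of 0.25. GABARAPL1, which encodes a protein of the autophagosome membrane, stood at 18.9, 17.9 and 21.2 CPM with DMSO and at 213, 201 and 213 CPM with CB-103 (3.43, SE 0.08). Its relative MAP1LC3B rose from 33.6±1.4 to 120.1±2.1 CPM, the protease gene CTSD from 88.2±5.2 to 334±24 CPM, the cargo receptor gene SQSTM1 by 1.10 and the factor TFE3 by 1.58. Lysosomal enzyme genes went both ways, with CTSB (-0.53) and CTSA (-0.32) among those called lower.

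Cytosolic heat shock genes split, with 8 of 20 called higher and 6 lower and a median of 0.06. HSPA1A stood at 136, 139 and 134 CPM with DMSO and at 625, 593 and 667 CPM with CB-103 (2.21), and HSPA1B rose by 2.40. These are near-identical genes, so the division of reads between them is uncertain. The mitochondrial chaperone genes HSPD1 (-0.34) and HSPE1 (-0.98) and the constitutive HSPA8 (-0.40) were called lower.

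Amino acid genes rose in part, several of them encoding transporters. Of 25 measured genes 15 were called higher and 2 lower, with a median of 0.47. SLC7A11, the cystine importer gene, stood at 9.88, 10.7 and 10.9 CPM with DMSO and at 191, 196 and 216 CPM with CB-103 (4.25, SE 0.12), and its partner subunit SLC3A2 rose from 169±14 to 864±94 CPM (2.35). SLC1A4 (1.69), SLC6A9 (1.4) and the glutathione-degrading enzyme gene CHAC1 (1.53) rose as well. In the serine pathway PHGDH fell by 0.44, and PSAT1 (-0.03), PSPH (0.07), SHMT2 (-0.07) and MTHFD2 (0.01) were not called. ASNS, a textbook target of ATF4, stood at 0.70 and was not called. Among 20 cytosolic tRNA synthetases 11 were called higher and 6 lower, led by WARS1 (2.50) and AARS1 (1.22) upward and VARS1 (-1.08) downward.

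Translation factors fell more often than they rose, 18 against 4 of 32, with a median of -0.23. EIF4A1 fell from 1354±115 to 606±39 CPM (-1.16), EIF4E, the cap-binding protein gene, from 233±1.9 to 109±4.8 (-1.10) and EIF5A from 621±66 to 304±22 (-1.03). EIF5 (0.85) and EIF1 (0.77), which set the choice of start codon, were called higher. EEF1A1, the most abundant transcript of the list, fell by 0.23, a call that was at the threshold without the count filter (adjusted p = 0.050).

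Antioxidant genes rose for 16 of 22 measured members and fell for 5, with a median of 0.34. BLVRB, biliverdin reductase, stood at 5.17, 6.36 and 6.59 CPM with DMSO and at 46.4, 52.0 and 50.9 CPM with CB-103 (3.04, SE 0.14). The ferritin genes FTL (1.48) and FTH1 (1.11), the haem transporter SLC48A1 (1.62) and the glutathione synthesis genes GCLC (1.38) and GCLM rose. The peroxide-removing genes PRDX1 (-1.31) and GPX4 (-0.70) fell. HMOX1 was called but stayed under 0.6 CPM in every library. Iron import and export genes both fell: the transferrin receptor TFRC from 1587±71 to 447±12 CPM (-1.83) and the exporter SLC40A1 from 49.1±1.8 to 12.8±2.8 CPM (-1.95). The zinc exporters SLC30A1 (1.4) and SLC30A7 (1.33) rose and the importer SLC39A4 fell (-1.37). In all, 5 of 15 measured metal genes were called higher and 4 lower. Of 21 measured genes of sterol uptake and control 8 were called higher and 5 lower. The sterol exporter gene ABCG1 fell (-0.49).

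Mitochondrial energy genes of the nucleus fell. Of 38 respiratory chain genes none was called higher and 35 were called lower (background 28.7%), with a median of -0.50. ATP5MC3, a subunit of the ATP synthase rotor, stood at 181, 168 and 154 CPM with DMSO and at 66.2, 58.6 and 62.7 CPM with CB-103 (-1.42, SE 0.06). COX7B (-1.36), ATP5MC1 (-1.23) and NDUFA2 (-1.08) fell more than 2-fold as well. In the tricarboxylic acid cycle 16 of 23 fell and 1 rose. Of 13 protein genes of the mitochondrial genome only MT-CYB was called (0.96), and 12 of 13 had positive values. Their calls depended on the fit, with 10 called higher without the count filter and 11 in a fit to the NT DMSO and NT CB-103 libraries alone.

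CCND3 and most chromatin genes fell. CCND3, the D-type cyclin of thymocytes, stood at 919.9, 935 and 925 CPM with DMSO and at 168, 146 and 130.4 CPM with CB-103 (-2.64, SE 0.08), without overlap. Of 28 chromatin and DNA methylation genes 24 were called lower and 3 higher, with a median of -0.82. UHRF1, which directs DNA methylation to new strands, stood at 510.5, 523 and 509.5 CPM with DMSO and at 115, 102 and 91.3 CPM with CB-103 (-2.32, SE 0.07). The methyltransferase genes DNMT3B (-1.37), DNMT3A (-0.97) and DNMT1 (-0.88) fell, as did the demethylating enzyme gene TET1 (-1.64), the architectural factor HMGA1 (-1.60) and the remodeller ATPase SMARCA4 (-1.25). The 3 members called higher were the histone demethylase genes KDM6B (1.04) and KDM6A (0.87) and TET2 (0.20), and EZH2 was not called (0.02).

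Within the E2F and RB list 13 of 18 fell and 3 rose, with a median of -0.70. Activating and repressing factors both fell: E2F7 from 50.4±2.2 to 15.1±1.3 CPM (-1.74), E2F8 (-1.5), MYBL2 (-1.5), TFDP1 (-1.4), E2F2 (-1.22) and E2F1 (-0.70). RB1, the pocket protein that restrains E2F, fell from 550.4±20 to 224±8.9 CPM (-1.30), while RBL1 (-0.12) and RBL2 (-0.06) were not called. DNA repair genes fell for 24 of 31 and rose for 2, with CLSPN (-1.02), FANCA (-0.86) and PARP1 (-0.84) among the largest falls and the damage kinase gene ATM higher (0.50). Among 12 relatives and partners of MYC, 3 rose and 6 fell. Those that rose encode repressors that compete with MYC: MXD4 (2.02), MXD1 (0.89) and MNT (0.62). MXD3, another member of that family, fell (-1.01), as did MYCL (-1.92).

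Genes of T-lineage identity fell. Of 31 measured T-lineage transcription factors 25 were called lower and 1 higher, with a median of -1.0, and 15 fell at least 2-fold (background 7.89%). LMO1, a T-ALL oncogene, stood at 195, 199.8 and 189.7 CPM with DMSO and at 39.5, 38.2 and 45.2 CPM with CB-103 (-2.25, SE 0.06). SOX4 fell from 386±6.7 to 128±13 CPM, MYB from 841±9.3 to 322±25 and LYL1 from 71.0±9.6 to 27.1±0.67. TCF7 (-1.35), BCL11B (-1.32), LEF1 (-1.21) and GATA3 (-1.18), which direct T-cell development, were all called lower, and TCF12 was called higher (0.46).

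Of 21 measured T-cell surface and recombination genes 17 fell and 2 rose, with a median of -1.05. CD2, an adhesion receptor of T cells, stood at 77.5, 59.3 and 57.0 CPM with DMSO and at 4.65, 4.71 and 6.32 CPM with CB-103 (-3.63, SE 0.23), and each CB-103 library was lower than all DMSO libraries. DNTT, the polymerase that adds bases at receptor gene joints, fell from 519±14 to 187±22 CPM (-1.48), RAG1 by 1.30 and CD7 from 4.32±0.72 to 0.998±0.16 CPM (-2.12). CD1A and RAG2 were called lower from under 0.6 CPM. The receptor constant genes went apart: TRBC1 fell (-1.87), and TRAC rose (3.06) but stayed under 0.4 CPM in every library. In a fit to the NT DMSO and NT CB-103 libraries alone TRAC did not pass the count filter. It was thus not tested there, and no other defining T-cell marker was called higher. T-cell receptor signalling genes fell for 17 of 26 and rose for 3, led by the kinase gene ZAP70 from 453±23 to 140.0±12 CPM (-1.69) and including LCK (-1.0) and the adaptor LAT (-1.12).

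Homing and adhesion genes fell for 21 of 23 and rose for 2, with a median of -1.16. CCR9, the receptor for a thymic and gut chemokine, stood at 106, 104 and 101 CPM with DMSO and at 12.9, 10.7 and 9.99 CPM with CB-103 (-3.20, SE 0.08), and the groups did not overlap. CD44 fell by 2.07 and the integrin gene ITGA4 by 1.56. KLF2, CCR7 and ITGB7 also fell, at levels under 3 CPM, and the ITGB7 call was lost without NT DMSO replicate 2 (adjusted p = 0.051).

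Cytokine receptor and JAK-STAT genes were divided, 10 of 26 higher and 12 lower, with a median of 0.05. STAT5A stood at 725, 743 and 778 CPM with DMSO and at 269, 257 and 233 CPM with CB-103 (-1.56, SE 0.06). JAK3 (-2.09), SOCS3 (-1.68) and IL6R (-2.15) fell, while JAK1 (0.61), JAK2 (0.64) and the shared cytokine receptor gene IL6ST (0.94) rose. IL21R went from 0.516±0.11 to 14.1±1.3 CPM. Of 21 measured death receptor and caspase genes 8 rose and 10 fell. TNFSF10, the death ligand TRAIL, fell from 411±17 to 77.1±4.8 CPM (-2.41) while its receptor gene TNFRSF10B rose from 22.3±1.6 to 45.6±2.8 CPM (1.03). CFLAR, the inhibitor of caspase 8 activation, stood at 159.8, 166 and 164 CPM with DMSO and at 32.8, 34.0 and 29.1 CPM with CB-103 (-2.36, SE 0.08), with no overlap.

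NF-kB and AP-1 genes rose in part. Of 25 NF-kB genes 16 were measured, with 9 called higher and 1 lower and a median of 0.38. RELB, a subunit of the alternative NF-kB pathway, stood at 0.766, 0.37 and 0.446 CPM with DMSO and at 8.87, 9.05 and 9.0 CPM with CB-103 (4.08, SE 0.24). CXCL3 rose from 0.89±0.12 to 28.8±1.9 CPM, and the feedback genes NFKBIA and TNFAIP3 each by 0.91. BIRC3 fell (-0.54), and 6 members, among them NFKB1 and CXCL1, are listed at 0 in all 6 libraries. Of 18 measured AP-1 and immediate early genes 8 rose and 4 fell. JUN stood at 1.97, 1.57 and 1.90 CPM with DMSO and at 19.9, 18 and 20.2 CPM with CB-103 (3.41, SE 0.15). MAFF (2.28), MAFG (1.68) and KLF10 (1.46) rose, while FOS (-1.10), EGR1 (-1.33) and KLF4 (-1.58) were not called.

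**Figure D4:**
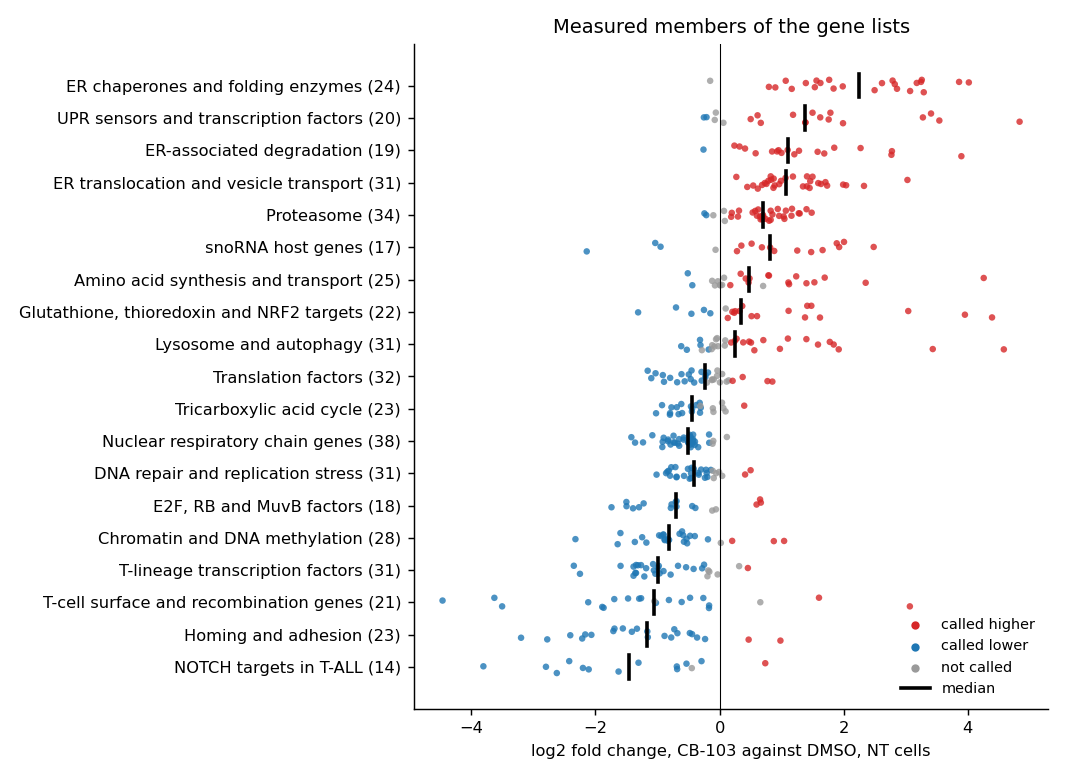
Log2 fold change of CB-103 against DMSO in NT cells for the measured members of 19 gene lists, with the number measured in brackets. Red points were called higher, blue points lower and grey points not called, and black bars are medians, from 2.24 for ER chaperones to -1.47 for NOTCH targets.

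Noncoding RNA took a larger share of the libraries under CB-103. Of 2748 tested long noncoding genes 22.7% were called higher and 12.2% lower, against 31.4% and 33.7% of 13305 coding genes. Their share of estimated reads was 1.16%±0.021 in the DMSO libraries and 1.69%±0.043 in the CB-103 libraries (exact permutation p = 0.10, the smallest possible). Transcripts annotated as targets of nonsense-mediated decay rose from 2.82%±0.016 to 3.45%±0.040 of reads (exact p = 0.10, again the smallest possible). The share of retained-intron transcripts was 2.83%±0.17 and 3.15%±0.20, and the groups overlapped (exact p = 0.20).

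Host genes of small nucleolar RNAs, whose spliced transcripts are known to be degraded through nonsense-mediated decay, rose for 13 of 17 and fell for 3, with a median of 0.81. SNHG12 stood at 20.8, 20.3 and 21.5 CPM with DMSO and at 119, 107 and 124 CPM with CB-103 (2.48, SE 0.09). ZFAS1 rose from 171±3.9 to 649±42 CPM, SNHG1 from 133±12 to 491±20, and GAS5 by 1.48. SNHG4 fell from 54.7±3.1 to 12.4±0.85 CPM (-2.14). Of 15 decay factor genes 7 rose and 5 fell, with UPF3B (0.83), UPF3A (0.66) and SMG1 (0.57) higher and RNPS1 (-0.79), EIF4A3 (-0.60) and UPF1 (-0.29) lower.

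Single long noncoding RNAs changed steeply. LUCAT1 rose from 0.424±0.069 to 3.86±0.055 CPM (3.18), and MIR646HG fell from 4.82±0.61 to 0.686±0.36 CPM (-2.80). LUCAT1 is annotated as an antisense gene, as are RFPL1S (4.76), L3MBTL2-AS1 (3.48), MATN1-AS1 (3.46) and LCT-AS1 (-3.28). TRD-AS1 (-3.61) is antisense by its name and annotated as a processed transcript. The host genes SNHG12 and ZFAS1 above are annotated as antisense too. The sources used here do not say whether strand was used in counting. Reads of all these genes and of their partners on the other strand thus cannot be told apart.

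The makeup of genes by transcript also changed. Among 10026 genes with at least 2 transcripts of a mean of 10 reads, edgeR's gene test of transcript usage called 1293 (12.9%) and limma's F test 1674 (16.7%), with 923 called by both. The edgeR test called unchanged genes too often in simulated data, so genes are named here only where both tests called them. After XBP1, the largest shift was in MAPRE2, a microtubule end-binding protein gene, whose leading transcript MAPRE2-201 took 94.0%, 95.0% and 97.5% of the gene's TPM under DMSO and 51.1%, 52.7% and 46.2% under CB-103. In ERP29, an ER folding gene, transcript ERP29-202 went from 16.0%±1.9 to 54.7%±1.6 while the gene rose from 112.7 to 214 TPM.

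Other shifts of a leading transcript were 88.8%±2.8 to 48.6%±8.4 for NUDT2-201 and 75.0%±9.6 to 31.0%±14 for TRABD-202. TRIM16L-216 rose from 10.2%±9.2 to 53.7%±3.1, and NUDT16L1-204 from 8.62%±5.1 to 45.6%±21, with a wide spread. TMSB15B-204 went from 50%±4.9 to 8.72%±15, and its edgeR call was lost without each single library other than NT CB-103 replicate 2 (adjusted p = 0.081 to 0.26). Of genes called by edgeR with at least 10 TPM in both groups and a transcript share that did not overlap, 74 of 1031 shifted by more than 20 percentage points.

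Promoter sequences of changed genes were searched on both strands in windows of 300 bases, from 250 before to 50 after the start (RefSeq). The ER stress element of the HSPA5 and XBP1 promoters printed above was found in 22 of 27305 promoters (0.0806%), in 14 of 11624 promoters of tested genes (0.12%) and in 10 of 1081 promoters of genes called at least 2-fold higher (0.925%). It was in none of 911 promoters of genes called at least 2-fold lower. Of the 14 tested genes, 13 were called higher: CRELD2, FICD, HSPA5, ERO1B, HSP90B1, SERP1, CALR, XBP1, ALG12, CANX, TRIM5, TMEM120A and EIF2A, and ZNF17 was not called (0.24). HSPA5, HSP90B1, CALR, CANX, CRELD2 and ERO1B make 6 of 22 ER chaperone promoters in the table (27.3%).

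The RBPJ site GTGGGAA was in 6.28% of all promoters, 5.71% of those of tested genes, 4.35% of those at least 2-fold higher and 6.04% of those at least 2-fold lower. Of 12 NOTCH target promoters 4 held it (33.3%), those of HES1, HES4, HEYL and CD3D. The AP-1 site TGACTCA was in 3.10% of promoters of tested genes, 6.57% of those at least 2-fold higher and 2.96% of those at least 2-fold lower. The CCAAT box, which is part of the ER stress element, was in 37.0%, 40.5% and 33.2%. The ATF4 site TGATGNAAT was in 0.473%, 0.74% and 0.439%, and the E2F sites TTTGGCGC or TTTCGCGC in 2.02%, 0.925% and 1.65%. For the E-box CACGTG the shares were 9.83%, 8.97% and 9.77%, and for the sterol element core CACCCCA 7.21%, 7.68% and 6.81%. A match is a description of these letters in the window, not evidence of binding.

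Most ER genes differed between CB-103 and GSI, the inhibitor that acts upstream, on receptor cleavage. CB-103 and LY3039278 are unrelated compounds given at doses unknown here. NT CB-103 was compared with NT GSI directly, since both responses use the same DMSO libraries. This contrast called 9765 of 17346 genes (56.3%), 5061 higher in CB-103 (29.2%) and 4704 lower (27.1%). Of the ER chaperone list 23 of 24 were higher in CB-103 and none lower, with a median difference of 2.2, and all 31 transport genes were higher. HSPA5 differed by 3.42 (SE 0.08, adjusted p = 1.2e-15), DDIT3 by 5.08 and SLC7A11 by 5.76. The amino acid list was higher in 22 of 25 and lower in 1, and tRNA synthetases were higher in 16 of 20. Against DMSO, the median of the 25 amino acid genes was -0.58 under GSI and 0.47 under CB-103. For the 20 synthetases it was -0.50 and 0.29, and for all tested genes 0.01 and 0.04. T-lineage factors were lower in CB-103 for 25 of 31 and homing genes for 21 of 23, with CCR9 at -1.22 and CCND3 at -2.73.

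NOTCH targets stood on both sides, with 6 of 14 higher in CB-103 than in GSI, 4 lower and a median difference of -0.01. HES4 was higher in CB-103 by 1.83 and DTX1 by 0.65, while HES1 was lower by 0.54 on the log2 scale and MYC by 0.24. NOTCH1 was lower in CB-103 (-1.52), and the difference in NOTCH3 was not called (-0.34, adjusted p = 0.11). Against DMSO, the log2 fold changes in NT cells under CB-103 and GSI were -2.42 and -1.88 for HES1, -1.63 and -3.46 for HES4, 3.29 and -0.13 for HSPA5, and -3.20 and -1.98 for CCR9.

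**Figure D5:**
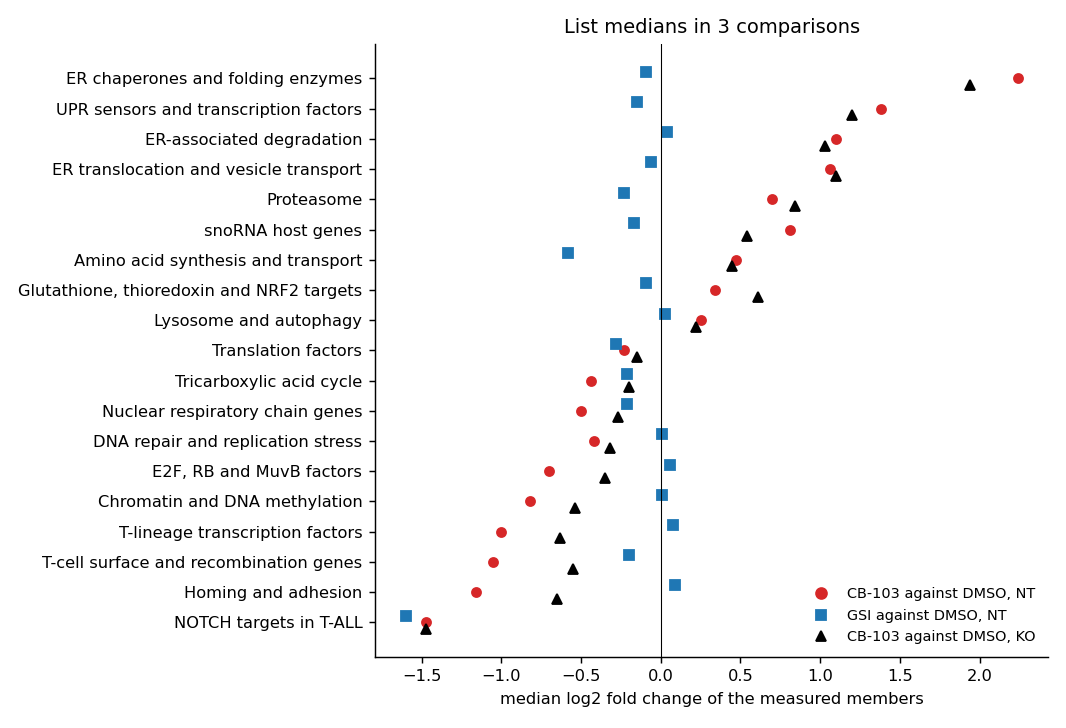
Median log2 fold change of the measured members of 19 lists for CB-103 in NT cells (red circles), GSI in NT cells (blue squares) and CB-103 in KO cells (black triangles), each against DMSO in the same cells. The NT responses share their DMSO libraries. For ER chaperones the medians are 2.24, -0.09 and 1.94, and for NOTCH targets -1.47, -1.60 and -1.47.

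The response also differed between KO and NT cells for some of these genes. Genotype cannot be told apart here from other differences between the KO and NT cells. The contrast of the CB-103 response in KO cells minus that in NT cells called 2533 of 17346 genes (14.6%), 1780 with a higher value in KO cells (10.3%) and 753 with a lower one (4.34%). In the ER chaperone list 11 of 24 were called lower in KO cells and none higher, PDIA4 by 0.80 and CRELD2 by 0.97 on the log2 scale, while HSPA5 was not called (-0.13). Homing genes were called higher in KO cells for 17 of 23, respiratory chain genes for 21 of 38 and T-lineage factors for 12 of 31, with none lower in each list. These genes fell in NT cells, so a higher value is a smaller fall or none. NOTCH targets were called higher for 4 of 14 and lower for 1.

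Among the marker lists, T-cell markers had the highest summed level, and DNTT alone stood at 519±14 CPM under DMSO. These lists do not check the guide or treatment label. Of the 11 defining T-cell markers all were measured in these libraries, their summed level was 1460 to 1520 CPM under DMSO and 804 to 901 CPM under CB-103, and 10 were called lower and 1, TRAC, higher. CD1A and TRAC were nevertheless under 0.5 CPM throughout. The listed markers of other blood cells were low. The 9 B-cell markers summed to 4.19 to 4.62 CPM under DMSO and 1.98 to 2.93 CPM under CB-103. MS4A1 and IGHM were listed at 0 in all 6 libraries, as was NFKB1. Whether a listed 0 is absent RNA or a missing entry was not tested. Myeloid markers summed to 2.16 to 2.62 and 2.15 to 2.63 CPM, erythroid markers to 0.482 to 0.678 and 0.478 to 0.931 CPM, and natural killer markers to 9.83 to 16.5 and 8.56 to 12.5 CPM. Adherent-cell markers summed to 255 to 269 and 76.5 to 87.5 CPM, most of it PECAM1, which T cells also express and which fell from 249.8±11 to 76.3±3.2 CPM (-1.71). The collagen gene COL1A1, on the same list, fell from 17.3±1.6 to 3.95±0.68 CPM (-2.14). CD68, listed here with the lysosome genes and known also as a macrophage marker, rose from 4.18±0.24 to 14.3±0.98 CPM (1.77). What part such cells have in the results was not tested. Among these low genes the call of CD79A was lost without NT DMSO replicate 1 or 3 or NT CB-103 replicate 1 or 3 (adjusted p = 0.052 to 0.11), and that of BLNK without NT DMSO replicate 1 or 3 or NT CB-103 replicate 2 or 3 (0.082 to 0.13). The call of KLRD1 was lost without NT DMSO replicate 3 (adjusted p = 0.056).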

How the data were processed

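RNA-seq of polyadenylated RNA from 18 libraries (6 groups of 3) was used. The gene table holds estimated counts per gene, rounded to whole numbers by the authors. The deposited transcript files hold Salmon's estimated counts and TPM per transcript, per the file headers, on GENCODE release 29 identifiers. Salmon 1.4.0, HISAT2 2.2.1, FastQC 0.11.9, bcl2fastq 2.20 and hg38 appear in the submitters' processing notes with no role given. A deposited table of variance-stabilised values was not used.

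Genes were filtered (filterByExpr), scaled by TMM and tested with edgeR 4.0.16 (R 4.3.3), by its quasi-likelihood test with Benjamini-Hochberg adjustment over 17346 genes, on all 18 libraries with 1 mean per group. The common biological coefficient of variation was 0.0965 with 12 residual degrees of freedom. The test was checked on simulated data. Transcript usage was tested with edgeR's diffSpliceDGE. Because it called unchanged genes too often in simulated data, limma 3.58.1 diffSplice, which did so less often there, was added after the data were seen.

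Same-numbered DMSO and CB-103 libraries deviated together (correlations of 0.45, 0.191 and 0.216). Unlike numbers came close, with 0.17 for DMSO 3 and CB-103 2 and 0.0956 for DMSO 2 and CB-103 3. Deviations were taken from the group mean, so these correlations are not independent. The replicate numbers were taken to pair the libraries, from the data and not from a stated batch. Only the replicate block used this pairing, and the main tests and permutation tests did not. The alternatives were DESeq2 1.42.0 (its size factors and its Wald test), limma-voom, no count filter, the compared groups alone, the replicate block and single libraries left out.

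The members and gene lists were chosen with earlier results of these data known. Genes were named from a fixed set of 14, from the 12 steepest rises and falls, the 8 largest gains and losses of CPM, up to 5 members per list, the 5 steepest long noncoding RNAs each way, 8 transcript shifts and up to 8 differences in the other contrasts. List members given only by value were added as descriptions. Some genes the rule names are not reported here. Markers of other cells are listed in the last paragraph of the results. Intervals of depth were not needed, since values come from replicated libraries of 30416183 to 43558387 reads.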

Additional observations from a re-analysis of the deposited data

Results flagged for a closer look

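The log2 response to CB-103 differed between KO and NT cells by the interaction test (edgeR, adjusted p under 0.05) for 15 of the named genes, given here as KO minus NT. Among NOTCH genes and genes of growth the differences were 0.60 for DTX1, 0.58 for NOTCH1, 0.99 for CCND3 and 0.81 for PIK3R1, the gene targeted in the KO cells. Stress genes had differences of -0.33 for DDIT3 and -0.39 for XBP1. The DDIT3 difference missed the threshold with DESeq2 size factors (adjusted p = 0.059), without the count filter (0.052) and with only the groups compared (0.051).

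Genes of the T-cell and homing lists differed by 1.48 for CD2, 1.75 for RUNX2 and 1.53 for CCR7. KRT1 and MEOX1, named for their steep falls and not from a list, differed by 2.21 and 2.60. The CCR7 difference was lost in the DESeq2 Wald test (adjusted p = 0.078), without the count filter (0.12) and with only the groups compared (0.074). The lysosomal gene CD68 differed by 1.53. Among markers of other cells the differences were 1.97 for VPREB1, 2.02 for CD79B and 2.02 for S100A9. These markers were low. Over the DMSO and CB-103 groups of NT and KO cells their highest mean was 1.7 CPM (CD79B, KO DMSO). The highest CCR7 mean in these groups was 0.61 CPM, also in KO DMSO.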

How the results depend on the processing

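The count of 10095 genes called stayed between 9443 and 10948 under every alternative that kept the calling rule, and 9443 to 9874 with 1 library left out. Between 90.3% and 99.6% of the calls were kept. Adding a 2-fold change to the rule left 3101. The share of called genes that were higher was 47.4% to 51.2%, and the median of all genes 0.00 to 0.05. With the replicate number as a block 10547 genes were called, 10055 of them among the calls made without it. Of 209 named genes none reversed and 7 were lost under some alternative (among them BLNK, DLL1, EEF1A1, CD79A, ITGB7 and KLRD1).

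Of 76 list counts 16 moved by more than 1.5 times under some alternative. Most were counts of 0 to 5, such as amino acid genes called lower, which went from 2 to 1 without NT DMSO replicate 2 or NT CB-103 replicate 2 or 3 and to 3 without NT CB-103 replicate 1. T-cell receptor signalling genes called higher went from 3 to 2 without NT DMSO replicate 3 or NT CB-103 replicate 2 or 3.

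Transcript usage gave 446 genes with the Simes test, 1570 with the replicate block and 963 to 1154 with 1 library left out. With all XBP1 transcripts in the denominator the joined share under CB-103 was 88.2%. By TPM in place of reads, DMSO and CB-103 libraries held 84.0% and 81.9% coding, 4.23% and 4.49% retained-intron, 3.12% and 3.74% decay-target, 10.5% and 15.1% mitochondrial, and 2.21% and 3.05% long noncoding RNA, each in the same direction as by reads. TPM divides by length; other causes were not tested.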
